A study of Arabidopsis thaliana with 35 samples.

Results

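The transposable elements of Arabidopsis chromosome 4 were followed in mature pollen of 6 silencing mutants and wild-type. A feature was kept when its identifier began with AT4TE and it had at least 10 counts in at least 5 of the 35 libraries, which left 36 of 3680 chromosome 4 elements, in a table of 66429 features. Poly(A) RNA was sequenced from 5 libraries of each genotype, labelled mbd5 mbd6, sln, acd15.5, acd21.4, acd15.5 acd21.4, acd15.5 acd21.4 sln and wild-type. All were in ecotype Col0, and replicates 1 and 2 of each genotype belonged to batch 1 and replicates 3 to 5 to batch 2. The labels do not name the alleles, the number of lines or whether replicates came from separate plants or pools, and the spread that the p-values rest on may be in part technical.

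Transposable elements are repeated sequences that can move or copy themselves, and plants keep most of them silent with DNA methylation, histone marks and proteins that read them. MBD5 and MBD6 bind methylated CG sites through a methyl-CpG-binding domain. SLN is a J-domain protein, of the family that works with HSP70 chaperones, and ACD15 and ACD21 have an alpha-crystallin domain like that of small heat shock proteins. The title of the study names ACD15, ACD21 and SLN together with MBD6 in the silencing of genes and transposable elements, and the comparisons are of each mutant with wild-type and of mutants with one another. Mature pollen holds a vegetative cell, whose chromatin is open enough to let some elements be transcribed, and sperm cells with condensed chromatin. Pollen was sequenced whole, so a change in the number of cells of a type and a change in RNA per cell cannot be told apart.

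The elements are known here by identifier alone. Chromosome 4 is read from the identifier, and the position, length, family and sequence of each element were not used here. Levels are therefore compared between genotypes for 1 element at a time, in CPM (counts per 1000000 of the library size after TMM scaling over the 12106 tested features), and never between elements. Values in a row are always replicates 1 to 5. A call is an adjusted p under 0.05 in edgeR's quasi-likelihood test, by the Benjamini-Hochberg method across the 12106 features and with no minimum fold.

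The libraries held 9267958 to 22208090 counts (median 13847738). MBD6 had 0.0221 ± 0.0493 CPM in mbd5 mbd6 and 0.815 ± 0.147 CPM in wild-type (SD, n = 5). SLN had 0.259 ± 0.196 CPM in sln and 0.246 ± 0.074 CPM in acd15.5 acd21.4 sln, against 4.51 ± 0.286 CPM in wild-type. MBD5 and the genes taken here for ACD15.5 and ACD21.4 had at most 4 counts in any library, so their transcripts check no label. The 5 vegetative cell markers were present in every library, at a summed level of 11463 to 19850 CPM in the mutants and 15189 to 19256 CPM in wild-type, and none of the 5 was called in any mutant. The 4 sperm cell markers summed to 416 to 534 CPM in the mutants and 481 to 515 CPM in wild-type. Of the 4, GEX1 (AT5G55490) was called lower in sln (log2 -0.17 ± 0.05), and in acd15.5 acd21.4 sln MGH3 (AT1G19890) was called higher (0.19 ± 0.05) and HAP2 (AT4G11720) lower (-0.20 ± 0.06), where 5.65% and 6.19% of all features were called. The 5 leaf markers had summed medians of 7.74 CPM in mbd5 mbd6, 14.97 in sln, 13.5 in acd15.5, 9.17 in acd21.4, 6.38 in acd15.5 acd21.4 and 8.18 in acd15.5 acd21.4 sln, against 7.45 CPM in wild-type. Their ranges all overlapped with the wild-type range of 3.03 to 18.96 CPM. None was called in any mutant, with a median log2 of 0.55 in sln and 0.54 in acd15.5, and their part in the results was not tested.

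Of the 3680, 3244 had no count in any library and 400 had counts but stayed under the rule. The 36 kept elements held 98.5% of the counts in chromosome 4 elements, and the 10 with most counts held 90.2% of the counts of the 36. The rule was reached in wild-type alone by 22 elements. The other 14 needed mutant libraries, so that elements quiet in wild-type could enter only by being detected in a mutant. Counts over the 36 are therefore a description of what was kept and not evidence on chromosome 4 elements in general. For each of the 105 calls between 2 genotypes, at least 5 libraries outside the 2 genotypes already reached 10 counts, so the element would have been kept without the libraries compared. For a call against wild-type those libraries are all of other mutants. Where mutants share an increase, the call is therefore not free of the rule. AT4TE15500 and AT4TE12570 reached 10 counts in 30 libraries each and in 0 of wild-type. At the edge of the rule, AT4TE33640, AT4TE12105 and AT4TE00230 were just inside, with a fifth-highest count of 10, 12 and 12, and AT4TE19110, AT4TE27915 and AT4TE09540 were just outside, each with 9. With a minimum of 20 counts the rule kept 26 elements, and with 10 libraries it kept 33.

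Chromosome 4 elements together took a larger mean share of the library in each mutant, given here without a test. The share of all counts was 0.0633 ± 0.00743% in mbd5 mbd6, 0.0695 ± 0.00756% in sln, 0.0698 ± 0.00511% in acd15.5, 0.0655 ± 0.00238% in acd21.4, 0.0708 ± 0.0046% in acd15.5 acd21.4 and 0.0594 ± 0.00569% in acd15.5 acd21.4 sln, against 0.0522 ± 0.00481% in wild-type (SD, n = 5 each). Every library of sln, acd15.5, acd21.4 and acd15.5 acd21.4 lay above every wild-type library, while mbd5 mbd6 and acd15.5 acd21.4 sln overlapped with wild-type. Relative to wild-type the shares were 1.21, 1.33, 1.34, 1.25, 1.36 and 1.14 times as large in the same order. Because batch 2 had higher shares than batch 1 in wild-type, the ratio was also taken within batches. In batch 1 it was 1.18, 1.32, 1.4, 1.35, 1.41 and 1.22 in the same order, and in batch 2 1.23, 1.34, 1.3, 1.2, 1.33 and 1.09. Within each batch all mutant libraries lay above wild-type, mbd5 mbd6 included, except for acd15.5 acd21.4 sln in batch 2. The 7 elements called higher in every mutant summed to 192 ± 13.6 CPM in mbd5 mbd6, 185 ± 6.91 in sln, 232 ± 7.54 in acd15.5, 229 ± 2.35 in acd21.4, 248 ± 8.11 in acd15.5 acd21.4 and 168 ± 5.08 in acd15.5 acd21.4 sln, against 56.4 ± 3.11 CPM in wild-type. The other 29 elements summed to 439 ± 26.5, 459.8 ± 24.1, 429.8 ± 14.5, 440.1 ± 25.2, 442 ± 11.7 and 444 ± 36.03 CPM in the mutants, against 464 ± 27.4 CPM in wild-type, and these ranges overlapped. The 7 were picked by their own calls, so their sum carries no test.

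**Figure D1:**
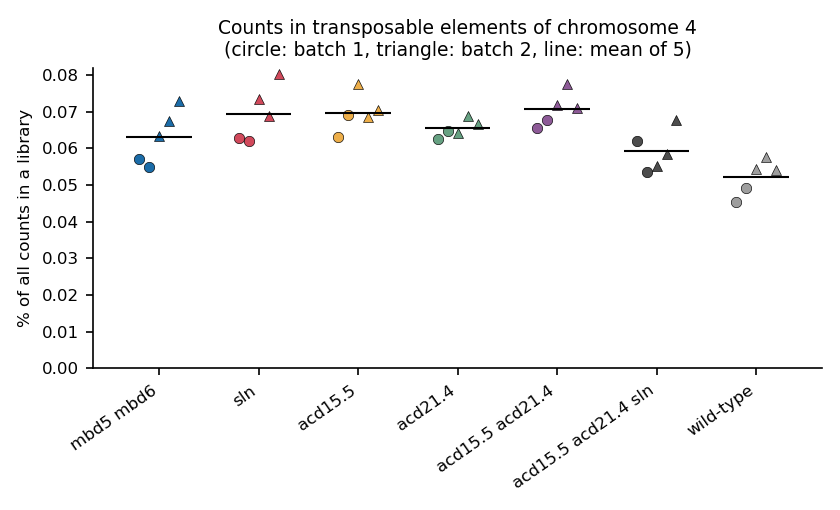
Share of all counts in transposable elements of chromosome 4 (percent, y axis) in each of the 35 libraries by genotype (x axis); circles are batch 1, triangles batch 2 and lines the mean of 5 libraries. The acd15.5 acd21.4 libraries lie above all wild-type libraries, and the mbd5 mbd6 and acd15.5 acd21.4 sln libraries overlap with wild-type.

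Against wild-type, 7 elements were called higher and 2 lower in mbd5 mbd6, beside 4.09% higher, 1.44% lower and 5.53% in either direction among all tested features. In sln 9 were higher and 2 lower, beside 4.25% higher, 1.40% lower and 5.65% in either direction among all. The acd15.5 mutant had 12 higher and 1 lower (3.46% higher, 1.0% lower and 4.46% in either direction of all features), and acd21.4 had 8 higher and 1 lower (3.35% higher, 1.32% lower and 4.67% in either direction of all features). In acd15.5 acd21.4 there were 13 higher and 1 lower (3.70% higher, 1.18% lower and 4.88% in either direction of all features), and in acd15.5 acd21.4 sln 9 higher and 1 lower (3.82% higher, 2.36% lower and 6.19% in either direction of all features). Of the 22 elements that reached the rule in wild-type alone, 4, 6, 6, 5, 9 and 5 were called higher in the mutants in that order, and 1 was called lower in each mutant. The median log2 change of the 36 was 0.15, -0.05, 0.12, 0.09, 0.06 and 0.08, and that of all tested features lay between 0.00 and 0.01 in size. By call, 7 elements were higher in all 6 mutants, 7 were higher in some, 2 were higher in 1 mutant and lower in another, 1 was only called lower and 19 were not called against wild-type. How many of all tested features had each of these patterns was not counted, so the counts are a description only. Among the elements higher in all 6 mutants, AT4TE12570, AT4TE15500 and AT4TE67560 did not reach the rule in wild-type alone.

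**Figure D2:**
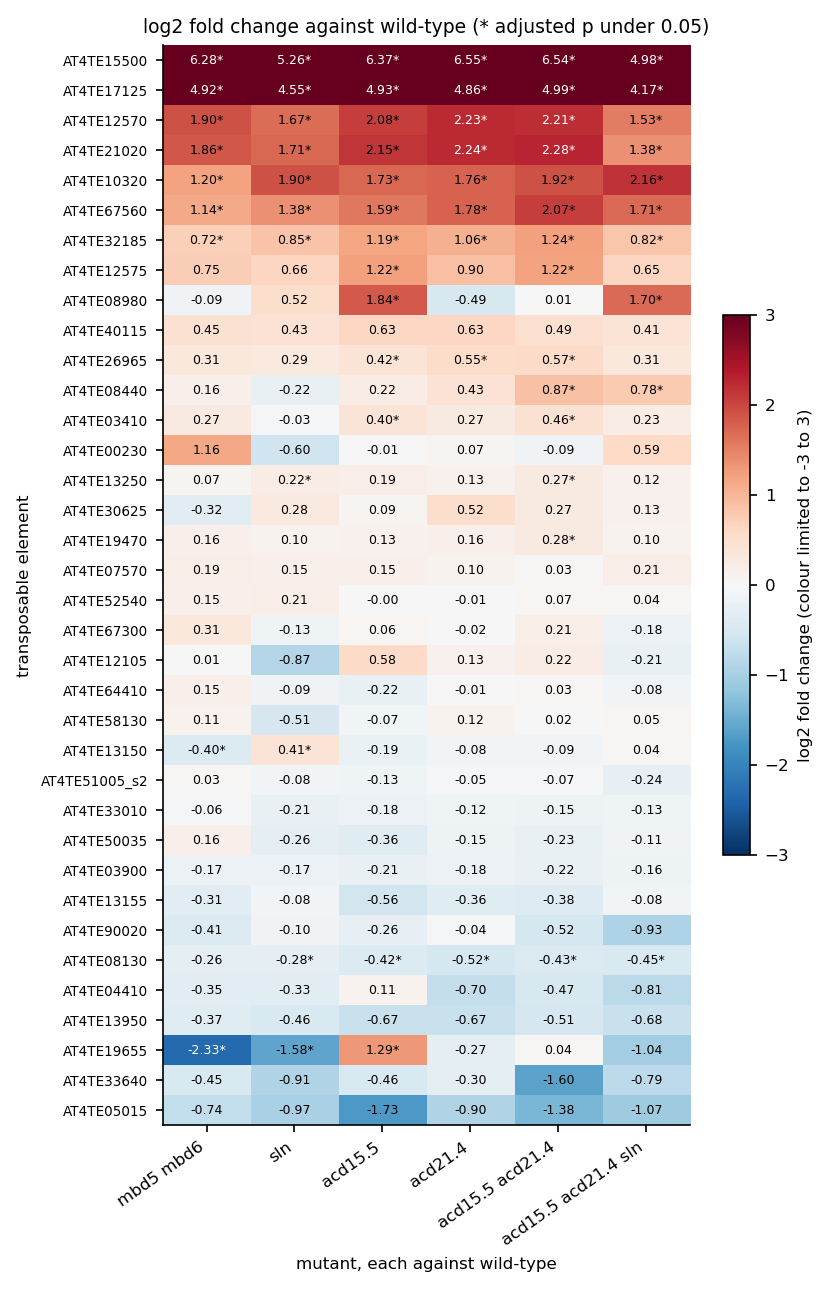
Log2 fold change of each of the 36 elements (rows, ordered by their mean) in each mutant against wild-type (columns), with the value printed in each cell, a star for an adjusted p under 0.05 and the colour limited to -3 to 3. AT4TE15500 and AT4TE17125 at the top were above log2 4 in every mutant, and most rows in the lower part carry no star.

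The 7 elements raised in every mutant ranged from almost no transcript to clear transcription in wild-type. AT4TE15500 was nearly silent in wild-type, with 0, 0, 2, 0 and 2 counts in the 5 libraries. AT4TE15500 had 5.42, 4.76, 6.81, 4.52 and 5.3 CPM in the mbd5 mbd6 libraries and 1.58, 2.53, 2.54, 2.5 and 3.57 CPM in the sln libraries. For AT4TE15500, the acd15.5 libraries had 5.62, 6.28, 5.62, 4.84 and 6.12 CPM, the acd21.4 libraries 6.06, 6.66, 5.86, 6.46 and 7.08 CPM and the acd15.5 acd21.4 libraries 5.9, 5.74, 6.54, 6.04 and 7.56 CPM. Levels of AT4TE15500 were 2.57, 2.18, 1.68, 1.72 and 2.4 CPM in acd15.5 acd21.4 sln, against 0, 0, 0.165, 0 and 0.141 CPM in wild-type. Every mutant library was above every wild-type library, and the sln and acd15.5 acd21.4 sln libraries were below those of the other mutants. The ratio of pooled levels was 107 in acd15.5 acd21.4 (exact 95% counting interval 41.5 to 394) and 36.1 in acd15.5 acd21.4 sln (13.8 to 134), intervals that cover counting error only and rest on 4 wild-type counts. AT4TE15500 was higher than wild-type by log2 6.28 ± 0.32 in mbd5 mbd6, 5.26 ± 0.36 in sln, 6.37 ± 0.31 in acd15.5, 6.55 ± 0.31 in acd21.4, 6.54 ± 0.31 in acd15.5 acd21.4 and 4.98 ± 0.39 in acd15.5 acd21.4 sln (± SE, edgeR, highest adjusted p of the comparisons 1.91e-14). For acd15.5 acd21.4 the SE is narrower than the counting interval, and leaving out 1 library moved the value between log2 6.18 and 7.13. These SE are thus too small for 4 wild-type counts. Batch 1 had no wild-type count of this element, so its size there cannot be given as a fold. In batch 2 alone it was log2 6.03 in acd15.5 acd21.4 (adjusted p = 3.71e-15).

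AT4TE17125 had the next largest change and was present in every wild-type library, with 25, 30, 25, 29 and 26 counts. AT4TE17125 had 52.8, 60.5, 69.96, 57.5 and 66.96 CPM in the mbd5 mbd6 libraries and 45.7, 52.8, 52.3, 44.2 and 43.8 CPM in the sln libraries. For AT4TE17125, the acd15.5 libraries had 62.8, 71.03, 68.1, 56.8 and 51.5 CPM, the acd21.4 libraries 62.4, 60.4, 58.2, 56.2 and 57.2 CPM and the acd15.5 acd21.4 libraries 65.1, 72.03, 75.1, 60.2 and 51.1 CPM. Levels of AT4TE17125 were 42.4, 37.5, 32.8, 37.7 and 33.99 CPM in acd15.5 acd21.4 sln, against 1.97, 2.52, 2.06, 1.83 and 1.83 CPM in wild-type. No mutant library came near wild-type, and the lowest values among mutants were in acd15.5 acd21.4 sln. By mean CPM the increase was 18.1- to 31.7-fold. AT4TE17125 was higher than wild-type by log2 4.92 ± 0.14 in mbd5 mbd6, 4.55 ± 0.14 in sln, 4.93 ± 0.14 in acd15.5, 4.86 ± 0.14 in acd21.4, 4.99 ± 0.14 in acd15.5 acd21.4 and 4.17 ± 0.15 in acd15.5 acd21.4 sln (± SE, edgeR, highest adjusted p of the comparisons 1.21e-20). Within batches the change in acd15.5 acd21.4 was log2 4.93 in batch 1 and 5.03 in batch 2.

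AT4TE21020 was transcribed in wild-type and higher in every mutant library. AT4TE21020 had 46.3, 47.8, 58.8, 57.6 and 58.9 CPM in the mbd5 mbd6 libraries and 49.4, 49.3, 54.96, 43.5 and 47.2 CPM in the sln libraries. For AT4TE21020, the acd15.5 libraries had 64.3, 62.8, 65.02, 65.9 and 71.4 CPM, the acd21.4 libraries 70.1, 70.7, 69.7, 69.03 and 71.5 CPM and the acd15.5 acd21.4 libraries 66.3, 71.4, 69.6, 76.1 and 77.7 CPM. Levels of AT4TE21020 were 37.03, 35.6, 37.6, 40.9 and 42.1 CPM in acd15.5 acd21.4 sln, against 16.2, 13.5, 14.99, 13.9 and 15.8 CPM in wild-type. The acd15.5 acd21.4 libraries had the highest mean, and all acd15.5 acd21.4 sln libraries were lower than every library of the other mutants. By mean CPM the increase was 2.59- to 4.85-fold. AT4TE21020 was higher than wild-type by log2 1.86 ± 0.07 in mbd5 mbd6, 1.71 ± 0.06 in sln, 2.15 ± 0.06 in acd15.5, 2.24 ± 0.06 in acd21.4, 2.28 ± 0.06 in acd15.5 acd21.4 and 1.38 ± 0.07 in acd15.5 acd21.4 sln (± SE, edgeR, highest adjusted p of the comparisons 6.01e-22).

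AT4TE10320 had another order among the mutants, with the highest mean in acd15.5 acd21.4 sln and the lowest in mbd5 mbd6. AT4TE10320 had 13.3, 19.5, 16.9, 17.1 and 15.6 CPM in the mbd5 mbd6 libraries and 24.1, 27.005, 25.95, 27.9 and 28.9 CPM in the sln libraries. For AT4TE10320, the acd15.5 libraries had 24.2, 22.3, 22.7, 23.9 and 25.8 CPM, the acd21.4 libraries 24.02, 23.3, 24.3, 25.9 and 23.3 CPM and the acd15.5 acd21.4 libraries 25.02, 24.7, 26.6, 28.7 and 29.6 CPM. Levels of AT4TE10320 were 29.97, 32.03, 33.7, 29.3 and 33.9 CPM in acd15.5 acd21.4 sln, against 6.77, 6.46, 7.83, 7.45 and 7.26 CPM in wild-type. All mutant libraries were above all wild-type libraries, and all mbd5 mbd6 libraries were below those of every other mutant. By mean CPM the increase was 2.31- to 4.45-fold. AT4TE10320 was higher than wild-type by log2 1.20 ± 0.08 in mbd5 mbd6, 1.90 ± 0.07 in sln, 1.73 ± 0.08 in acd15.5, 1.76 ± 0.08 in acd21.4, 1.92 ± 0.08 in acd15.5 acd21.4 and 2.16 ± 0.08 in acd15.5 acd21.4 sln (± SE, edgeR, highest adjusted p of the comparisons 8.82e-17).

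AT4TE32185 had the smallest increase of the 7 and a small spread between replicates. AT4TE32185 had 51.8, 50.1, 50.6, 51.6 and 54.3 CPM in the mbd5 mbd6 libraries and 50.9, 56.7, 52.1, 60.4 and 61.3 CPM in the sln libraries. For AT4TE32185, the acd15.5 libraries had 71.5, 72.4, 75.4, 68.02 and 70.6 CPM, the acd21.4 libraries 63.1, 62.99, 70.2, 65.1 and 64.5 CPM and the acd15.5 acd21.4 libraries 70.04, 77.9, 71.7, 76.6 and 73.1 CPM. Levels of AT4TE32185 were 59.1, 56.9, 54.3, 50.3 and 55.4 CPM in acd15.5 acd21.4 sln, against 35.6, 31.04, 30.1, 32.4 and 27.5 CPM in wild-type. No mutant library overlapped with wild-type, and acd15.5 acd21.4 and acd15.5 had the highest means, with libraries that overlapped those of acd21.4. By mean CPM the increase was 1.65- to 2.36-fold. AT4TE32185 was higher than wild-type by log2 0.72 ± 0.06 in mbd5 mbd6, 0.85 ± 0.06 in sln, 1.19 ± 0.06 in acd15.5, 1.06 ± 0.06 in acd21.4, 1.24 ± 0.06 in acd15.5 acd21.4 and 0.82 ± 0.06 in acd15.5 acd21.4 sln (± SE, edgeR, highest adjusted p of the comparisons 3.11e-14). For AT4TE17125, AT4TE21020, AT4TE10320 and AT4TE32185 the increase was called in each mutant within batch 1 alone and within batch 2 alone.

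AT4TE12570 and AT4TE67560 were low in all genotypes, and their counts limit them. AT4TE12570 had 14, 16, 12, 11 and 30 counts in acd15.5 acd21.4 sln and 1, 9, 6, 7 and 6 counts in wild-type. AT4TE12570 had 1.52, 1.59, 1.96, 2.19 and 1.1 CPM in the mbd5 mbd6 libraries and 2.23, 1.11, 1.96, 1.35 and 0.685 CPM in the sln libraries. For AT4TE12570, the acd15.5 libraries had 2.41, 1.3, 2.76, 1.21 and 1.55 CPM, the acd21.4 libraries 2.06, 1.72, 2.01, 1.995 and 2.74 CPM and the acd15.5 acd21.4 libraries 2.47, 2.28, 1.88, 2.39 and 1.28 CPM. Levels of AT4TE12570 were 1.03, 1.34, 0.878, 1.35 and 1.72 CPM in acd15.5 acd21.4 sln, against 0.0787, 0.755, 0.494, 0.442 and 0.423 CPM in wild-type. Only in sln was a library (replicate 5) as low as the highest wild-type library. AT4TE12570 was higher than wild-type by log2 1.90 ± 0.37 in mbd5 mbd6, 1.67 ± 0.37 in sln, 2.08 ± 0.35 in acd15.5, 2.23 ± 0.36 in acd21.4, 2.21 ± 0.35 in acd15.5 acd21.4 and 1.53 ± 0.39 in acd15.5 acd21.4 sln (± SE, edgeR, highest adjusted p of the comparisons 0.00841). The call in acd15.5 acd21.4 sln was lost without its replicate 5 (log2 1.34, adjusted p = 0.0539). In sln and acd15.5 acd21.4 sln it was called in neither batch alone, and in mbd5 mbd6 in batch 2 alone only.

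AT4TE67560 had 1.44, 1.59, 0.619, 0.753 and 1.38 CPM in the mbd5 mbd6 libraries and 1.31, 1.43, 2.04, 1.28 and 1.01 CPM in the sln libraries. For AT4TE67560, the acd15.5 libraries had 1.53, 1.5, 1.61, 1.21 and 2.13 CPM, the acd21.4 libraries 2.2, 1.57, 1.92, 1.52 and 1.94 CPM and the acd15.5 acd21.4 libraries 2.23, 2.01, 2.71, 1.65 and 2.5 CPM. Levels of AT4TE67560 were 2.13, 2.01, 1.98, 1.11 and 1.37 CPM in acd15.5 acd21.4 sln, against 0.944, 0.587, 0.33, 0.442 and 0.352 CPM in wild-type. The mbd5 mbd6 libraries of replicates 3 and 4 lay within the wild-type range, and every library of the other 5 mutants lay above it. AT4TE67560 was higher than wild-type by log2 1.14 ± 0.29 in mbd5 mbd6, 1.38 ± 0.28 in sln, 1.59 ± 0.27 in acd15.5, 1.78 ± 0.27 in acd21.4, 2.07 ± 0.26 in acd15.5 acd21.4 and 1.71 ± 0.27 in acd15.5 acd21.4 sln (± SE, edgeR, highest adjusted p of the comparisons 0.00822). In mbd5 mbd6 the call was lost without replicate 5 (log2 1.02, adjusted p = 0.0528), and it was called in neither batch alone (log2 0.96 in batch 1 and 1.35 in batch 2). In sln and acd15.5 it was called in batch 2 alone and not in batch 1 alone.

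**Figure D3:**
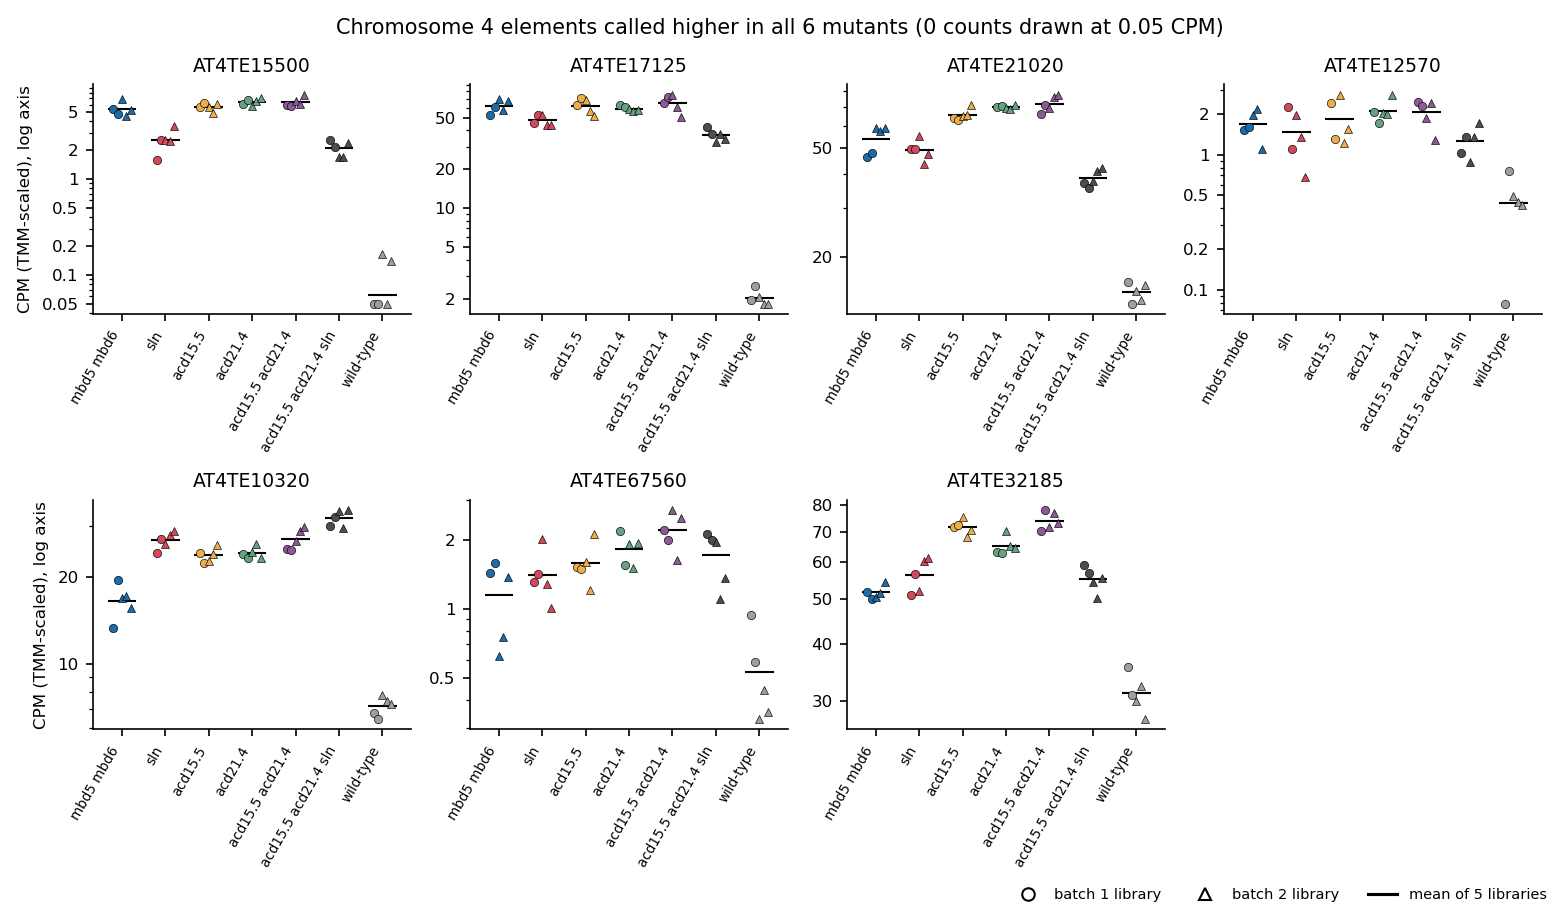
Level of the 7 elements called higher in all 6 mutants (CPM, log axis) in each library by genotype (x axis); circles are batch 1, triangles batch 2, lines the mean of 5 libraries, and libraries with 0 counts are drawn at 0.05 CPM. In the panels of AT4TE15500, AT4TE17125, AT4TE21020, AT4TE10320 and AT4TE32185 no mutant library reaches down to the wild-type libraries, while AT4TE12570 in sln and AT4TE67560 in mbd5 mbd6 do.

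In acd15.5 acd21.4 sln, 4 of the 7 raised elements were lower than in acd15.5 acd21.4 while still above wild-type. Of the 36, 2 were called higher and 4 lower in acd15.5 acd21.4 sln against acd15.5 acd21.4, beside 0.710% higher, 1.43% lower and 2.14% in either direction among all tested features. AT4TE15500 averaged 2.11 ± 0.3997 CPM in acd15.5 acd21.4 sln and 6.35 ± 0.735 CPM in acd15.5 acd21.4 (SD, n = 5 each), a log2 change of -1.56 ± 0.16 (adjusted p = 7.15e-10). AT4TE21020 averaged 38.6 ± 2.74 and 72.2 ± 4.69 CPM in the same order (log2 -0.90 ± 0.06, adjusted p = 2.11e-16). AT4TE17125 averaged 36.9 ± 3.76 and 64.7 ± 9.61 CPM (log2 -0.81 ± 0.09, adjusted p = 2.79e-07), and AT4TE32185 55.2 ± 3.28 and 73.8 ± 3.31 CPM (log2 -0.42 ± 0.05, adjusted p = 2.72e-07). For these 4 every acd15.5 acd21.4 sln library was below every acd15.5 acd21.4 library. AT4TE12570 (log2 -0.68 ± 0.29) and AT4TE67560 (log2 -0.36 ± 0.21) were not called. AT4TE10320 went the other way, with 31.8 ± 2.1 CPM in acd15.5 acd21.4 sln and 26.9 ± 2.19 CPM in acd15.5 acd21.4 (log2 0.24 ± 0.06, adjusted p = 0.0258), a call that was lost in 6 of 10 fits that left out 1 of these libraries and in each batch alone. The other higher element, AT4TE08980, is described further on.

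Against sln, acd15.5 acd21.4 sln had 3 elements called higher and 3 lower (2.81% higher, 1.45% lower and 4.25% in either direction of all features). AT4TE15500 averaged 2.11 ± 0.3997 CPM in acd15.5 acd21.4 sln and 2.54 ± 0.705 CPM in sln and was not called (log2 -0.28 ± 0.18, adjusted p = 0.398). AT4TE32185 was not called either (log2 -0.03 ± 0.05, adjusted p = 0.849). AT4TE17125 was lower in acd15.5 acd21.4 sln than in sln, at log2 -0.37 ± 0.09 (adjusted p = 0.0176), and AT4TE21020 at -0.34 ± 0.06 (adjusted p = 0.000146). AT4TE10320 was higher by log2 0.25 ± 0.06 (adjusted p = 0.0127). The call of AT4TE21020 was made in each batch alone, and those of AT4TE17125 and AT4TE10320 in neither. That of AT4TE10320 was also lost with only the groups compared (adjusted p = 0.0544).

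The acd15.5 acd21.4 mutant was higher than sln for 6 elements and lower for 1, beside 1.75% higher, 0.975% lower and 2.73% in either direction among all tested features. The higher ones included AT4TE15500 (log2 1.28 ± 0.15, adjusted p = 7.35e-09), AT4TE21020 (log2 0.57 ± 0.06, adjusted p = 9.32e-11), AT4TE17125 (log2 0.44 ± 0.09, adjusted p = 0.00192) and AT4TE32185 (log2 0.39 ± 0.05, adjusted p = 4.44e-07). The call of AT4TE17125 was lost in batch 2 alone (adjusted p = 0.0753). Against mbd5 mbd6, the acd15.5 acd21.4 mutant had 7 elements called higher and 0 lower (1.15% higher, 0.430% lower and 1.58% in either direction of all features). AT4TE10320 was higher there by log2 0.72 ± 0.07 (adjusted p = 8.04e-11), AT4TE32185 by 0.51 ± 0.05 (adjusted p = 1.19e-09) and AT4TE21020 by 0.42 ± 0.06 (adjusted p = 4.47e-07). AT4TE15500 (log2 0.26 ± 0.14) and AT4TE17125 (log2 0.07 ± 0.09) were not called.

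Between sln and mbd5 mbd6, 2 elements were called higher in sln and 3 lower (1.04% higher, 1.92% lower and 2.97% in either direction of all features). AT4TE10320 was higher in sln, with 26.8 ± 1.85 CPM in sln and 16.5 ± 2.27 CPM in mbd5 mbd6 (log2 0.71 ± 0.07, adjusted p = 5.19e-11). AT4TE15500 was lower, with 2.54 ± 0.705 CPM in sln and 5.36 ± 0.892 CPM in mbd5 mbd6 (log2 -1.02 ± 0.15, adjusted p = 5.57e-06). AT4TE17125 was lower by a smaller amount (log2 -0.37 ± 0.09, adjusted p = 0.0144), and the call was lost in 4 of 10 fits that left out 1 library and in batch 1 alone. AT4TE00230, which is near the threshold of the rule, had 5, 8, 7, 3 and 0 counts in sln and 7, 16, 10, 15 and 16 counts in mbd5 mbd6 (log2 -1.76 ± 0.41, adjusted p = 0.00642). It was not called in batch 1 alone, with only the groups compared (adjusted p = 0.083), nor without replicate 5 of sln (log2 -1.26, adjusted p = 0.0551). In total AT4TE00230 had 64 counts in mbd5 mbd6, 23 in sln and 29 in wild-type. No mutant was called for it against wild-type (log2 -0.60 to 1.16, lowest adjusted p = 0.0736). In mbd5 mbd6 it was called against wild-type with no filter, with only the groups compared and without mbd5 mbd6 replicate 1.

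Against mbd5 mbd6, the acd15.5 acd21.4 sln mutant had 3 elements called higher and 3 lower (1.09% higher, 1.16% lower and 2.26% in either direction of all features). AT4TE15500 was lower, at log2 -1.30 ± 0.16 (adjusted p = 2.22e-07), AT4TE17125 at -0.75 ± 0.09 (adjusted p = 2.05e-06) and AT4TE21020 at -0.48 ± 0.06 (adjusted p = 1.1e-07). AT4TE10320 was higher by log2 0.96 ± 0.07 (adjusted p = 1.68e-14). Among acd15.5, acd21.4 and acd15.5 acd21.4 no comparison had more than 1 call. The acd21.4 mutant against acd15.5 had 0 elements called higher and 1 lower (0.0743% higher, 0.165% lower and 0.240% in either direction of all features), and acd15.5 acd21.4 against acd15.5 also had 0 higher and 1 lower (0.124% higher, 0.0826% lower and 0.207% in either direction of all features). In both the element was AT4TE08980. For acd15.5 acd21.4 against acd21.4, edgeR called 0 elements, with 4 at an unadjusted p under 0.05 and 0 by DESeq2, beside 0.190% higher, 0.0578% lower and 0.248% in either direction of all features by edgeR. Among the raised elements the difference of acd21.4 from acd15.5 was log2 0.18 ± 0.14 for AT4TE15500, -0.08 ± 0.09 for AT4TE17125 and 0.09 ± 0.05 for AT4TE21020.

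**Figure D4:**
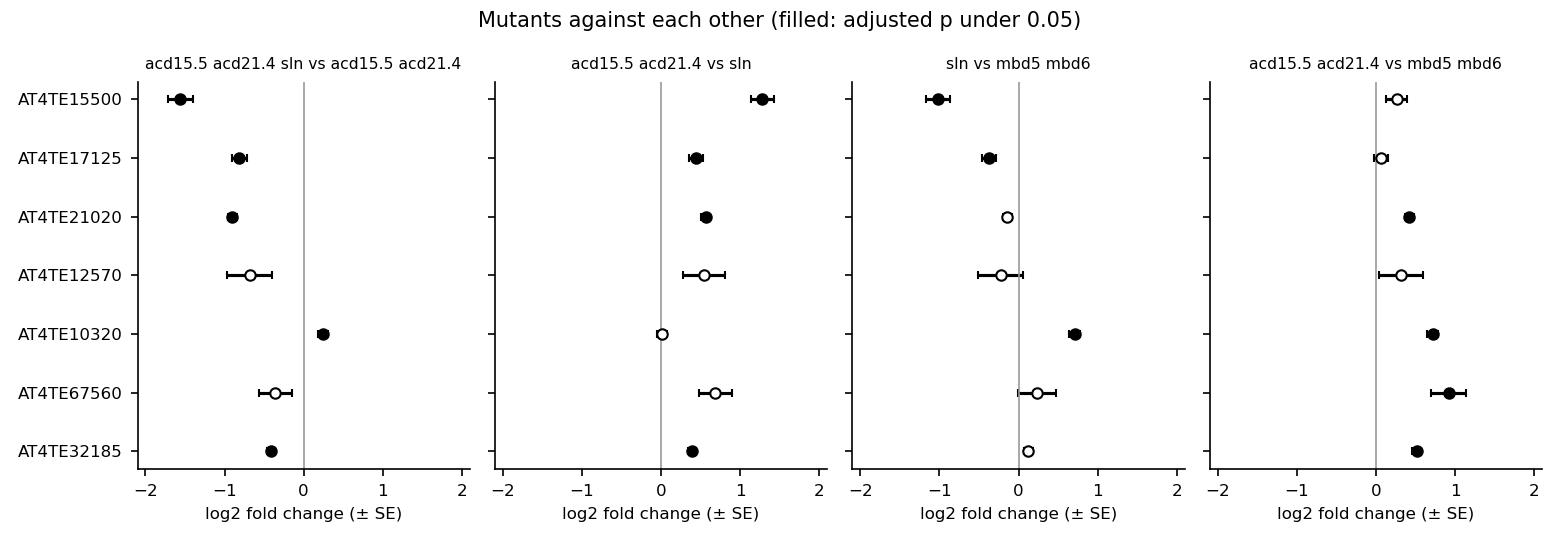
Log2 fold change with its SE (x axis) of the 7 raised elements (y axis) in 4 comparisons between mutants, 1 per panel; filled points had an adjusted p under 0.05. Points left of 0 in the first panel show the elements that were lower in acd15.5 acd21.4 sln than in acd15.5 acd21.4, and AT4TE10320 lies on the other side.

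Other elements were called higher in some mutants and not in others. AT4TE08980 was high in acd15.5 and in acd15.5 acd21.4 sln and had no call in the other mutants. AT4TE08980 had 0.479, 0.747, 0.516, 0.547 and 0.662 CPM in the mbd5 mbd6 libraries and 0.591, 0.95, 0.7997, 1.28 and 0.937 CPM in the sln libraries. For AT4TE08980, the acd15.5 libraries had 2.41, 1.71, 2.36, 2.75 and 2.19 CPM, the acd21.4 libraries 0.826, 0.313, 0.366, 0.399 and 0.228 CPM and the acd15.5 acd21.4 libraries 0.478, 1.003, 0.904, 0.499 and 0.427 CPM. Levels of AT4TE08980 were 1.98, 1.93, 1.9, 2.95 and 1.89 CPM in acd15.5 acd21.4 sln, against 0.787, 1.01, 0.577, 0 and 0.916 CPM in wild-type. Every acd15.5 and acd15.5 acd21.4 sln library was above every library of the other genotypes, wild-type included, and 1 wild-type library had 0 counts. It was higher than wild-type by log2 1.84 ± 0.30 in acd15.5 (adjusted p = 6.7e-06) and 1.70 ± 0.31 in acd15.5 acd21.4 sln (adjusted p = 7.99e-05). The acd21.4 mutant was lower than acd15.5, at log2 -2.33 ± 0.33 (adjusted p = 1.99e-05) and acd15.5 acd21.4 lower than acd15.5 at -1.83 ± 0.29 (adjusted p = 0.000173). The acd15.5 acd21.4 sln mutant was higher than acd15.5 acd21.4 by log2 1.69 ± 0.30 (adjusted p = 0.000247). The acd15.5 acd21.4 libraries, which carry the acd15.5 label too, had no call against wild-type (log2 0.01 ± 0.37). Neither increase over wild-type was called in batch 1 alone (log2 1.19 in acd15.5 and 1.12 in acd15.5 acd21.4 sln), and both were in batch 2 alone (log2 2.34 and 2.17). The 3 calls between mutants given above were also made in batch 2 alone and not in batch 1 alone.

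AT4TE19655 was lower than wild-type in mbd5 mbd6 and sln and higher in acd15.5, with a wide spread between acd15.5 replicates. AT4TE19655 had 0.319, 0, 0.516, 0.479 and 0.11 CPM in the mbd5 mbd6 libraries and 0.197, 0.396, 0.654, 0.54 and 0.54 CPM in the sln libraries. For AT4TE19655, the acd15.5 libraries had 4.08, 2.12, 7.05, 2.09 and 1.61 CPM, the acd21.4 libraries 1.03, 1.25, 1.19, 1.6 and 0.571 CPM and the acd15.5 acd21.4 libraries 2.15, 1.003, 0.765, 1.4 and 1.95 CPM. Levels of AT4TE19655 were 0.294, 0.922, 0.585, 0.86 and 0.801 CPM in acd15.5 acd21.4 sln, against 1.65, 0.671, 1.65, 1.58 and 1.48 CPM in wild-type. In mbd5 mbd6 and sln every library was below every wild-type library, and in acd15.5 replicates 1 and 3 stood above the rest. It was lower than wild-type, at log2 -2.33 ± 0.56 in mbd5 mbd6 (adjusted p = 0.00738) and -1.58 ± 0.48 in sln (adjusted p = 0.0457). In acd15.5 it was higher by log2 1.29 ± 0.35 (adjusted p = 0.0225). The acd15.5 call was lost without acd15.5 replicate 3 (log2 0.79, adjusted p = 0.203) and in 5 of 10 fits that left out 1 library. The sln call was lost in 9 of 10 such fits, and the mbd5 mbd6 call in none, but none of the calls against wild-type was made in batch 1 alone or in batch 2 alone. The acd15.5 acd21.4 mutant was higher than mbd5 mbd6 by log2 2.38 ± 0.55 (adjusted p = 0.0157), a call lost without replicate 1 or 5 of acd15.5 acd21.4 or replicate 5 of mbd5 mbd6, and in each batch alone.

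AT4TE13150 is an abundant element that moved in opposite directions in sln and mbd5 mbd6. AT4TE13150 had 62.1, 55.2, 56.7, 44.96 and 49.8 CPM in the mbd5 mbd6 libraries and 94.3, 94.2, 100.03, 94.99 and 84.9 CPM in the sln libraries. For AT4TE13150, the acd15.5 libraries had 64.8, 65.02, 62.6, 61.97 and 54.6 CPM, the acd21.4 libraries 71.1, 69.7, 65.4, 64.9 and 64.5 CPM and the acd15.5 acd21.4 libraries 75.8, 71.8, 63.8, 62.9 and 60.1 CPM. Levels of AT4TE13150 were 75.5, 83.7, 74.8, 71.7 and 58.9 CPM in acd15.5 acd21.4 sln, against 72.1, 71.3, 75.1, 72.8 and 61.9 CPM in wild-type. All sln libraries were above the wild-type libraries, and the mbd5 mbd6 libraries overlapped with them by the value of replicate 1. It was lower than wild-type, at log2 -0.40 ± 0.06 in mbd5 mbd6 (adjusted p = 7.62e-06) and higher by 0.41 ± 0.06 in sln (adjusted p = 3.1e-06). The sln mutant was higher than mbd5 mbd6 by log2 0.81 ± 0.06 (adjusted p = 3.67e-13). The acd15.5 acd21.4 mutant was lower than sln, at log2 -0.49 ± 0.06 (adjusted p = 1.06e-07), and acd15.5 acd21.4 sln lower than sln at -0.37 ± 0.06 (adjusted p = 9.87e-05), a call lost in batch 1 alone. Both calls against wild-type held within each batch, with log2 -0.28 and -0.47 in mbd5 mbd6 and 0.40 and 0.42 in sln for batches 1 and 2. In acd15.5 AT4TE13150 had no call against wild-type in the main fit. It was called there with no filter, with the replicate block and without wild-type replicate 5.

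AT4TE08440 was raised in the lines that carry both acd mutations. It had 2.15, 2.83, 3.13, 1.75 and 2.25 CPM in acd15.5 acd21.4 and 2.79, 2.35, 1.9, 2.46 and 1.89 CPM in acd15.5 acd21.4 sln, against 1.57, 1.09, 1.4, 1.2 and 1.27 CPM in wild-type. All libraries of both mutants were above the wild-type libraries. The increase was log2 0.87 ± 0.20 in acd15.5 acd21.4 (adjusted p = 0.00168) and 0.78 ± 0.20 in acd15.5 acd21.4 sln (adjusted p = 0.00901). The acd15.5 acd21.4 call was lost in batch 1 alone (log2 0.88, adjusted p = 0.304), and the acd15.5 acd21.4 sln call in batch 1 alone (log2 0.94, adjusted p = 0.177) and batch 2 alone (log2 0.67, adjusted p = 0.187). In the single mutants it was log2 0.22 ± 0.21 in acd15.5 and 0.43 ± 0.21 in acd21.4, without a call, and the double mutant was not called against either (log2 0.66 ± 0.18 and 0.44 ± 0.19). The acd15.5 acd21.4 mutant was higher than sln by log2 1.09 ± 0.19 (adjusted p = 0.000105), and acd15.5 acd21.4 sln higher than sln by 0.99 ± 0.20 (adjusted p = 0.00134), both called in batch 2 alone and not in batch 1 alone.

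The remaining raised elements had smaller changes. AT4TE12575 averaged 0.903 ± 0.237 CPM in acd15.5 and 0.886 ± 0.0519 CPM in acd15.5 acd21.4, against 0.381 ± 0.0869 CPM in wild-type (SD, n = 5 each), an increase of log2 1.22 ± 0.30 (adjusted p = 0.00563) and 1.22 ± 0.31 (adjusted p = 0.00697). AT4TE26965 averaged 7.88 ± 0.808 CPM in acd15.5, 8.61 ± 1.07 CPM in acd21.4 and 8.82 ± 0.593 CPM in acd15.5 acd21.4, against 5.91 ± 0.73 CPM in wild-type. Its increase was log2 0.42 ± 0.10, 0.55 ± 0.10 and 0.57 ± 0.10 (highest adjusted p 0.00444). In the other mutants AT4TE26965 was not called, at log2 0.31 ± 0.11 in mbd5 mbd6, 0.29 ± 0.10 in sln and 0.31 ± 0.11 in acd15.5 acd21.4 sln. Without wild-type replicate 1 AT4TE26965 was called in each of these mutants too. It was also called in sln without sln replicate 1 and in acd15.5 acd21.4 sln without its replicate 4. AT4TE03410 was higher by log2 0.40 ± 0.10 in acd15.5 (adjusted p = 0.00563) and 0.46 ± 0.10 in acd15.5 acd21.4 (adjusted p = 0.000774). AT4TE13250 was higher by log2 0.22 ± 0.06 in sln (adjusted p = 0.0136) and 0.27 ± 0.06 in acd15.5 acd21.4 (adjusted p = 0.00159). The sln call was lost without sln replicate 5 or wild-type replicate 4. In acd15.5 AT4TE13250 was called only under other settings: RLE scaling, a minimum count of 20 and the replicate block. It was also called there without wild-type replicate 3 or 5, or without acd15.5 replicate 4 or 5. Over all 6 mutants the change was log2 0.65 to 1.22 for AT4TE12575 and 0.07 to 0.27 for AT4TE13250. Neither these 2 elements nor AT4TE26965 were called in any comparison between mutants. AT4TE12575 reached 10 counts in 0 wild-type libraries. AT4TE19470 was called higher in acd15.5 acd21.4 alone, by log2 0.28 ± 0.07 (adjusted p = 0.00496). In the other 5 mutants it was at log2 0.10 to 0.16 without a call, and it was not called in any comparison between mutants. Without mbd5 mbd6 replicate 1 it was called in mbd5 mbd6 too. AT4TE19470 in acd15.5 acd21.4, AT4TE03410 in acd15.5 and AT4TE13250 in sln were called in neither batch alone. The calls in acd15.5 acd21.4 were made in batch 2 alone for AT4TE03410 and in batch 1 alone for AT4TE13250, and in the other batch alone neither was. Whether the calls of AT4TE12575 and AT4TE26965 held within each batch or without single libraries is not given here.

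AT4TE08130 was the element that was only ever called lower. It had 10.9, 14.2, 12.6, 12.99 and 14.2 CPM in acd15.5, 11.01, 12.2, 11.7, 13.4 and 12.4 CPM in acd21.4 and 15.3, 12.7, 13.2, 12.2 and 11.3 CPM in acd15.5 acd21.4. The acd15.5 acd21.4 sln libraries had 14.5, 11.99, 11.1, 14.5 and 11.8 CPM, against 14.3, 16.9, 19.7, 17.7 and 18.3 CPM in wild-type. All acd15.5 and acd21.4 libraries were below wild-type, and 1 or more libraries of acd15.5 acd21.4 and acd15.5 acd21.4 sln overlapped with it. The decrease was log2 -0.42 ± 0.09 in acd15.5, -0.52 ± 0.09 in acd21.4, -0.43 ± 0.09 in acd15.5 acd21.4 and -0.45 ± 0.09 in acd15.5 acd21.4 sln (highest adjusted p 0.000633). In sln it was -0.28 ± 0.09 (adjusted p = 0.0495), a call lost in 8 of 10 fits without 1 library, and in mbd5 mbd6 -0.26 ± 0.09 without a call (adjusted p = 0.0845). None of these calls held in batch 1 alone, where the change was log2 -0.30 in acd15.5 and -0.43 in acd21.4, and in batch 2 alone it was -0.48 and -0.56, both called.

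**Figure D5:**
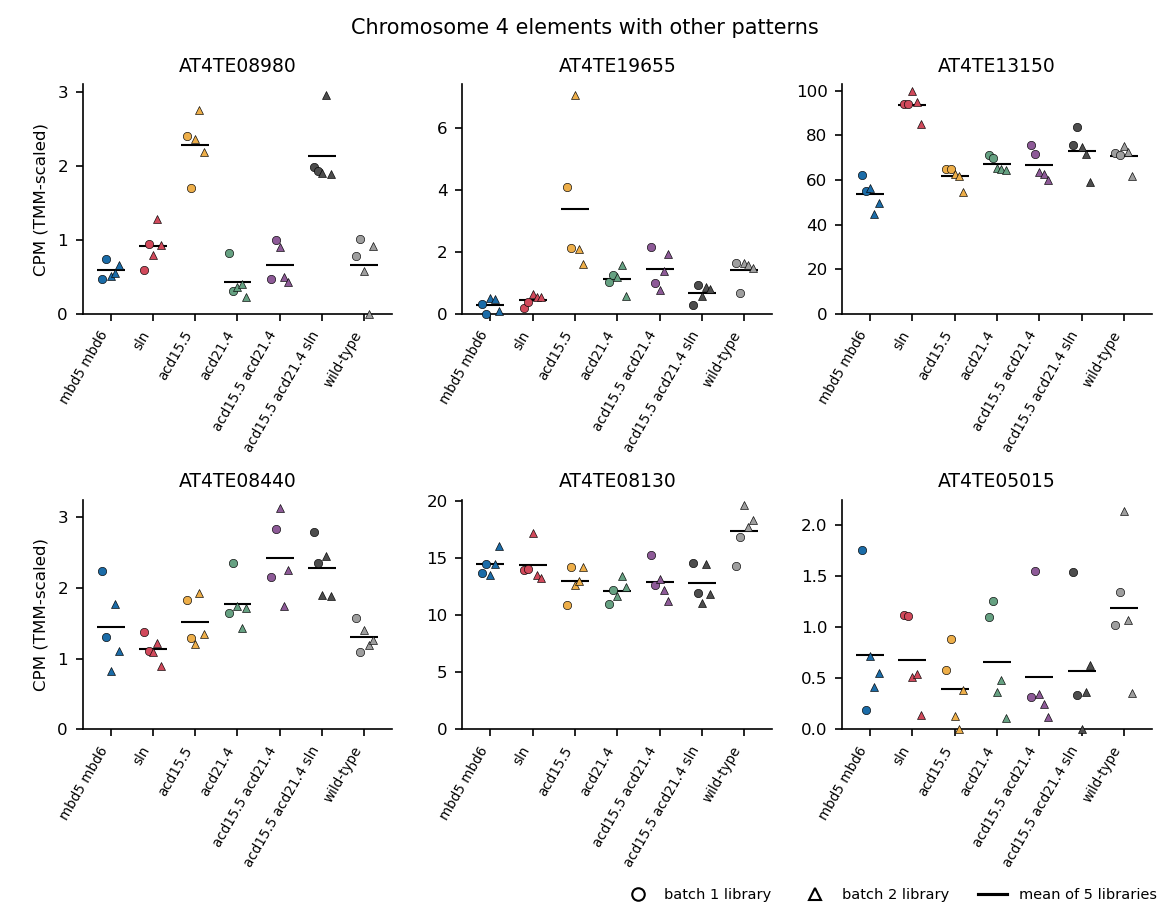
Level (CPM, y axis from 0) of 6 elements with other patterns in each library by genotype (x axis); circles are batch 1, triangles batch 2 and lines the mean of 5 libraries. AT4TE08980 is high in acd15.5 and acd15.5 acd21.4 sln, AT4TE19655 has 1 acd15.5 library far above the rest, AT4TE13150 is highest in sln and lowest in mbd5 mbd6, and AT4TE05015 has a higher batch 1 mean than batch 2 mean in each mutant.

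The 19 elements without a call against wild-type include the one with most counts. AT4TE33010 averaged 192 ± 20.03, 173 ± 15.8, 177 ± 10.7, 184 ± 25.5, 180.2 ± 9.21 and 183 ± 30.1 CPM in the mutants, in the order used above, against 200.2 ± 21.2 CPM in wild-type (SD, n = 5 each). Its log2 change was between -0.21 and -0.06, and the genotypes overlapped. AT4TE03900 averaged 51.03 ± 5.78 CPM in mbd5 mbd6, 49.4 ± 2.04 CPM in acd15.5 acd21.4 and 51.5 ± 8.04 CPM in acd15.5 acd21.4 sln, against 57.4 ± 5.85 CPM in wild-type, with log2 changes of -0.22 to -0.16. AT4TE52540 averaged 43.8 ± 7.04 CPM in mbd5 mbd6 and 45.99 ± 6.99 CPM in sln, against 40.1 ± 5.41 CPM in wild-type, with log2 changes of -0.01 to 0.21 over the mutants. The lack of a call does not show that these elements did not change. AT4TE33010 was called in sln by DESeq2, with no filter and with only the groups compared, and in acd15.5 under the last of these settings and with no filter. AT4TE03900 was called in acd15.5 with no filter and with only the groups compared, and in acd15.5 acd21.4 with no filter and in batch 2 alone.

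The other 16 uncalled elements had lower counts. AT4TE51005_s2 averaged 3.04 ± 0.468 CPM in acd15.5 acd21.4 sln and 3.66 ± 0.705 CPM in wild-type, and AT4TE64410 3.69 ± 0.469 and 3.97 ± 0.587 CPM. AT4TE90020 had a mean of 1.75 ± 1.0004 CPM in acd15.5 acd21.4 sln and 3.36 ± 0.722 CPM in wild-type, the largest uncalled decrease of an element with at least 10 counts in all 35 libraries (log2 -0.93 ± 0.29, adjusted p = 0.0512). AT4TE07570, AT4TE50035 and AT4TE30625 had wild-type means of 2.004 ± 0.649, 1.96 ± 0.177 and 1.41 ± 0.172 CPM. AT4TE40115 was above wild-type in mean in all 6 mutants, at log2 0.41 to 0.63, and was not called in any, with 18, 11, 29, 13 and 19 counts in acd15.5 and 9, 9, 6, 12 and 10 counts in wild-type. AT4TE13950 was below wild-type in mean in all 6, at log2 -0.68 to -0.37, again with no call. So were AT4TE05015 (log2 -1.73 to -0.74), AT4TE33640 (-1.60 to -0.30), AT4TE13155 (-0.56 to -0.08) and AT4TE90020 (-0.93 to -0.04). AT4TE07570 was above wild-type in all 6, at log2 0.03 to 0.21. By DESeq2, and in batch 2 alone, AT4TE05015 was called in acd15.5 and AT4TE90020 in acd15.5 acd21.4 sln. AT4TE13155, AT4TE67300, AT4TE58130 and AT4TE04410 had wild-type means of 1.33 ± 0.478, 0.922 ± 0.143, 0.946 ± 0.225 and 0.898 ± 0.125 CPM. AT4TE05015, AT4TE12105, AT4TE00230 and AT4TE33640 had wild-type means of 1.19 ± 0.647, 0.472 ± 0.187, 0.435 ± 0.0422 and 0.545 ± 0.251 CPM. At such levels a change of the size seen for AT4TE32185 may not be detectable at this depth.

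The 2 batches of the labels differed in some elements. Batch 2 against batch 1 had 4 elements called higher and 3 lower, 19.4% of the 36. Among all features 8.36% were called higher and 8.86% lower, and 17.2% in all, so the count is near that background. AT4TE05015 was lower in batch 2, at log2 -1.25 ± 0.33 (adjusted p = 0.0084), with 1.75, 0.187, 0.722, 0.411 and 0.552 CPM in mbd5 mbd6 and 1.1, 1.25, 0.366, 0.479 and 0.114 CPM in acd21.4, against 1.02, 1.34, 2.14, 1.07 and 0.352 CPM in wild-type. Its call was lost when the percentage of reads in no feature entered the fit (log2 -0.53). That percentage was 0.267 to 0.944% in batch 2 and 0.217 to 0.999% in batch 1, with medians of 0.528% in batch 2 and 0.794% in batch 1. AT4TE12105 was higher in batch 2 by log2 0.69 ± 0.22 (adjusted p = 0.0248), AT4TE33010 by 0.19 ± 0.04 (adjusted p = 0.00125) and AT4TE03900 by 0.16 ± 0.04 (adjusted p = 0.00448). AT4TE21020 was higher by a small amount (log2 0.09 ± 0.03, adjusted p = 0.0393), and its call was lost in 12 of 35 fits without 1 library. AT4TE03410 was lower, at log2 -0.20 ± 0.05 (adjusted p = 0.00888) and AT4TE13150 at -0.14 ± 0.03 (adjusted p = 0.00423). The 5 vegetative cell markers were all called lower in batch 2, as was 1 of 5 leaf markers, while 2 of 4 sperm cell markers (DUO1 and HAP2) were called higher. All comparisons of genotypes included a batch term.

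Elements whose identifiers follow each other in the file can be set side by side, with no statement on their distance. AT4TE12570 and AT4TE12575 are such a pair. In acd15.5 acd21.4 AT4TE12570 was higher than wild-type by log2 2.21 ± 0.35 and AT4TE12575 by 1.22 ± 0.31, and in mbd5 mbd6 AT4TE12570 was higher by 1.90 ± 0.37 while AT4TE12575 had no call (0.75 ± 0.33). AT4TE13150 and AT4TE13155 are the other pair. AT4TE13150 was higher in sln by log2 0.41 ± 0.06, and AT4TE13155, with far fewer counts, was at -0.08 ± 0.27 without a call. Reads that align to several places are not shown in the tables, and how they were treated could move the values of repeated elements of this kind.

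A list of 21 silencing genes was examined beside the elements, of which 13 were abundant enough to test. ROS1 (AT2G36490), a DNA glycosylase that removes methylated cytosine, was called higher in mbd5 mbd6 by log2 1.21 ± 0.25 (adjusted p = 0.000495), in sln by 0.82 ± 0.25 (adjusted p = 0.0399) and in acd15.5 acd21.4 by 1.17 ± 0.24 (adjusted p = 0.000658). It was not called in acd15.5 acd21.4 sln (log2 0.74 ± 0.26), acd15.5 (0.26 ± 0.27) or acd21.4 (0.30 ± 0.28). MORC6 (AT1G19100), an ATPase that acts in silencing, was lower, at log2 -0.38 ± 0.09 in acd15.5 (adjusted p = 0.00337) and -0.36 ± 0.09 in acd21.4 (adjusted p = 0.0106). SUVH5 (AT2G35160), a histone H3 lysine 9 methyltransferase, was higher by log2 0.30 ± 0.07 in acd15.5 (adjusted p = 0.00256). No other gene of the list was called against wild-type, so 1 of 13 was called in mbd5 mbd6, in sln, in acd21.4 and in acd15.5 acd21.4, 2 of 13 in acd15.5 and 0 of 13 in acd15.5 acd21.4 sln. Among all features 5.53% were called in either direction in mbd5 mbd6, 5.65% in sln, 4.67% in acd21.4, 4.88% in acd15.5 acd21.4, 4.46% in acd15.5 and 6.19% in acd15.5 acd21.4 sln, and 1 call among 13 genes is near that background. In acd15.5 acd21.4 sln the count of 0 had 1 gene at an unadjusted p under 0.05.

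Set beside the other chromosomes, the rule kept 36 of 3680 elements of chromosome 4 (0.978%). By the same rule it kept 46 of 5370 on chromosome 1 (0.857%), 57 of 4461 on chromosome 2 (1.28%), 68 of 4872 on chromosome 3 (1.396%) and 58 of 5105 on chromosome 5 (1.14%). Among the tested elements of each chromosome, 36.1% of those of chromosome 4 were called higher in acd15.5 acd21.4, and 39.5%, 39.3%, 33.3% and 24.6% of those of chromosomes 1, 2, 3 and 5. In mbd5 mbd6 the share was 19.4% on chromosome 4 and 30.2%, 39.3%, 34.9% and 28.1% on the others. On chromosome 4 it was 25.0% in sln, 33.3% in acd15.5, 22.2% in acd21.4 and 25.0% in acd15.5 acd21.4 sln. The other chromosomes had 22.8 to 36.4%, 24.6 to 41.1%, 22.8 to 37.5% and 22.8 to 33.9% in these mutants, in that order. These shares are a description of which elements passed a filter, and the differences between chromosomes were not tested.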

How the data were processed

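Poly(A) RNA of mature pollen was sequenced from 35 libraries, 5 for each of 7 genotypes, prepared with a stranded kit per the labels. The authors deposited raw counts per feature for genes and transposable elements. The submitters' processing notes name Trim Galore, STAR, HTSeq, deepTools and the TAIR10 build, with no version, and the settings are not given in the sources used. The deposited count tables list 0 for reads that align to several places, and also for unaligned reads and reads of low alignment quality. Whether reads shared between copies of an element entered the counts is therefore not known. Reads in no feature were 0.217 to 0.999% of a library.

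The counts of the 35 tables were joined by identifier, and summary lines were left out. Features were kept with edgeR's filterByExpr (minimum count 10, minimum total 15), which left 12106, all 36 elements included. Libraries were scaled by TMM, and a robust edgeR quasi-likelihood model with genotype and batch was fitted to all 35 libraries, with Benjamini-Hochberg adjustment over all features for each comparison. The SE is the log2 fold change divided by the square root of F. It is too small for AT4TE15500 against wild-type, which had 4 counts. The pipeline was tested on simulated data. Intervals on counts cover counting error only.

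The elements and the lists of genes were chosen with earlier results of these data known. Elements named by rule were the 10 with the highest mean, the called elements with the largest changes in each comparison and those at the threshold, and the others are given so that all 36 are accounted for. Alternatives were RLE scaling, DESeq2, other filters, no batch term, the groups compared alone, a covariate, each batch alone, a replicate block and leaving out each library. Transposable element positions, families and sequences were not used here.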

Additional observations from a re-analysis of the deposited data

Results flagged for a closer look

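The effect of sln differed with and without acd15.5 acd21.4 for 10 elements, by an interaction contrast in the same edgeR fit that was chosen after seeing the data. Over all 12106 features 5.30% were called for this contrast. The contrast is the log2 change of acd15.5 acd21.4 sln over acd15.5 acd21.4, minus that of sln over wild-type, so a negative value means that the change with sln was lower in acd15.5 acd21.4 than in wild-type. The largest values were in elements called higher than wild-type in both sln and acd15.5 acd21.4. An element raised to a like level in sln, acd15.5 acd21.4 and acd15.5 acd21.4 sln gives a negative value by arithmetic. For these elements the contrast largely restates the increases over wild-type and is no separate finding. AT4TE10320 had a negative value although its highest mean was in acd15.5 acd21.4 sln. The contrast was not refitted in each batch or without single libraries. AT4TE15500 had -6.82 ± 0.39 (adjusted p = 5.22e-19), with an SE too small for its 4 wild-type counts. AT4TE17125 had -5.36 ± 0.18 (adjusted p = 2.27e-21) and AT4TE21020 -2.62 ± 0.09 (adjusted p = 1.13e-27). AT4TE12570 had -2.35 ± 0.47 (adjusted p = 0.000623), AT4TE67560 -1.73 ± 0.35 (adjusted p = 0.000464) and AT4TE10320 -1.66 ± 0.10 (adjusted p = 2.13e-18). AT4TE32185 had -1.27 ± 0.08 (adjusted p = 6.9e-18). Smaller values were found for AT4TE26965 (-0.55 ± 0.14, adjusted p = 0.0116), AT4TE13250 (-0.38 ± 0.09, adjusted p = 0.00245) and AT4TE13150 (-0.28 ± 0.09, adjusted p = 0.0469).

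Single libraries stood apart from the other 4 of their genotype in 9 of 161 groups, where chance alone gives about 1 in 20. AT4TE08980 had 2.95 CPM in acd15.5 acd21.4 sln replicate 4, against 1.89 to 1.98 CPM in the other replicates, and 0.826 CPM in acd21.4 replicate 1, against 0.228 to 0.399 CPM. AT4TE19655 had 0.671 CPM in wild-type replicate 2, below the 1.48 to 1.65 CPM of the other replicates. AT4TE08130 had 17.2 CPM in sln replicate 3, against 13.3 to 14.1 CPM, and AT4TE13250 25.6 CPM in sln replicate 5, against 22.5 to 23.3 CPM. AT4TE05015 had 1.55 CPM in acd15.5 acd21.4 replicate 2, against 0.122 to 0.348 CPM. AT4TE00230 had 0.895 CPM in acd21.4 replicate 1, against 0.275 to 0.392 CPM, and AT4TE12105 0.878 CPM in acd21.4 replicate 4, against 0.366 to 0.457 CPM. AT4TE33640 had 1.32 CPM in acd15.5 acd21.4 sln replicate 1, against 0 to 0.368 CPM.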

How the results depend on the processing

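Of 107 calls of named elements, 94 were kept in every fit that left out 1 library and 62 under every setting tried, and none changed direction. Replicate numbers were not taken to pair the libraries, since only 16 of 105 same-numbered pairs correlated above 0.1. Of 35 libraries, 21 correlated best with their own number, at most a weak hint of pairing from the data and not the design. Each library had only 2 numbers to match in batch 1 and 3 in batch 2, so many such matches arise by chance. With the replicate block 100 of 100 calls were kept, and elements lower in acd15.5 numbered 2 instead of 1. Using 1 batch costs replicates: batch 1 alone kept 61 of 100 calls and batch 2 alone 80 of 100. In batch 1 alone, elements higher in acd15.5 numbered 6, and elements lower numbered 1 in mbd5 mbd6 and 0 in each other mutant. Batch 1 alone gave 3 calls for sln against mbd5 mbd6, 4 for acd15.5 acd21.4 against mbd5 mbd6, 1 for acd15.5 acd21.4 sln against sln, and 0 for acd21.4 and for acd15.5 acd21.4 against acd15.5. In batch 2 alone, elements lower numbered 1 in mbd5 mbd6, 0 in sln and 2 in acd15.5, acd15.5 acd21.4 and acd15.5 acd21.4 sln, and acd15.5 acd21.4 against mbd5 mbd6 had 4 calls. Elements lower in sln numbered 1 with a minimum count of 20, with no batch term and with the no-feature covariate. Elements lower in acd15.5 numbered 4 with no filter, 3 with the groups compared alone and 2 with the covariate or DESeq2. Elements lower in acd15.5 acd21.4 numbered 2 with no filter, and in acd15.5 acd21.4 sln 2 with a minimum count of 20, the groups compared alone or DESeq2. DESeq2 also gave 2 calls for acd21.4 against acd15.5. Causes were not tested.

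Leaving out 1 library gave 0 to 1 elements lower in sln, 1 to 2 in acd15.5 and in acd15.5 acd21.4, and 1 to 3 in acd15.5 acd21.4 sln. The 3 came without acd15.5 acd21.4 sln replicate 1. It gave 3 to 5 calls for sln against mbd5 mbd6, with 3 without sln replicate 5, and 4 to 8 for acd15.5 acd21.4 against mbd5 mbd6, with 4 without acd15.5 acd21.4 replicate 5. It gave 1 to 2 for acd21.4 and for acd15.5 acd21.4 against acd15.5.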
